A study of Chlorocebus sabaeus with 18 samples.

Results

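The splicing factor TRA2A was knocked down with siRNA in COS-7 cells that also carried an expanded CGG repeat (CGG_siTRA), and these cells were set against cells with the repeat and no knockdown (CGG). The comparison takes 3 CGG_siTRA and 3 CGG libraries, chosen by their labels, 6 of the 18 samples of the series. All 6 came from COS-7, a line grown from African green monkey kidney, transfected with the FMR1 leader carrying 60 CGG repeats. Cells with the knockdown and no repeat (siTRA, 3 libraries) were set against COS-7 cells labelled only as control (CTL, 3 libraries). This second comparison served to ask whether the same changes were seen without the repeat, and it shares no library with the first. Cells overexpressing TRA2A (TRA_OE, 3 libraries) are used for a few levels. No group is named as one with a control siRNA or an empty vector, so an effect of siRNA delivery cannot be told apart from an effect of losing TRA2A. For the same reason, where the first and second comparison differ, the repeat cannot be told apart from transfection. The labels do not say that the 3 libraries of a group came from separate cultures, so the p-values measure the spread between these libraries.

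TRA2A belongs to the family of serine- and arginine-rich splicing proteins. It binds purine-rich sequences in exons and is known to favour the inclusion of the exons that carry them. CGG expansions of premutation length in the leader of FMR1 are the cause of the fragile X-associated tremor and ataxia syndrome, in which the repeat RNA gathers RNA-binding proteins into nuclear inclusions. Several genes of the serine- and arginine-rich family carry exons that bring an early stop codon into the transcript and limit the gene's own output. The study set out to ask which RNAs and exons change when the repeat is present and when TRA2A is raised or lowered.

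Counts per exon bin were deposited, an exon bin being a stretch of exon that all transcripts of a gene either use whole or skip whole. Summing the bins gave 19997 units, each a gene or several overlapping genes. The summed counts were 136478500, 142191311 and 172371949 in the CGG_siTRA libraries a, b and c, and 141531899, 144958632 and 203957869 in the CGG libraries a, b and c. The gene values below are TMM-scaled counts, that is counts divided by the library's effective size and brought to the mean library size. The tables give gene IDs that were not paired here with gene names, so all genes but TRA2A carry their position on the human build GRCh38, to which the monkey reads were aligned. The roles of these genes, and the markers of kidney or other cell types, could therefore not be read.

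TRA2A was lowered in every knockdown library. The gene was found by its behaviour: of 13282 single genes tested, 39 were at least 2-fold lower in both knockdowns, and 1 of these was raised in TRA_OE by 2-fold or more relative to CTL. That gene, ENSG00000164548.10 at chr7:23504780-23532041 on the minus strand, had 4240, 4648 and 4525 scaled counts in CGG_siTRA, against 16606, 15240 and 15738 in CGG. The groups lay far apart, and 28.2% of the CGG level was left. In cells without the repeat it had 3781, 4777 and 3165 scaled counts in siTRA, against 16433, 16422 and 16400 in CTL, which leaves 23.8%. Because these values chose the gene, they describe the knockdown and are given with no test.

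Of 14969 genes tested, 1522 (10.2%) were called different between CGG_siTRA and CGG by edgeR's quasi-likelihood test at an adjusted p under 0.05. Of these, 619 (4.14% of the genes tested) were higher in CGG_siTRA and 903 (6.03%) were lower. Most changes were small, with a median of 0.37 on the log2 scale among the higher genes and -0.37 among the lower ones. Only 18 genes (0.12%) were called at least 2-fold higher and 30 (0.2%) at least 2-fold lower. Scaling with the authors' library factors in place of TMM moved the median of all genes from 0.01 to -0.09 and gave 297 higher and 2039 lower calls, so the balance of rises and falls depends on the scaling. The count also rested on single libraries: it was 944 without CGG_siTRA library b, 1007 without CGG library c and 1012 without CGG library a.

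The genes called were mostly well expressed. The genes tested were split by mean level into 4 equal parts. In the lowest part 29 genes were called higher and 13 lower, which is 1.12% of 3743 genes, and in the third and the highest part 15.3% and 14.2% were called. In the highest part the calls were 145 higher and 388 lower. The median level was 3616 scaled counts for the genes called higher, 7056 for those called lower and 2290 for all genes tested. The test has less power at low counts, so these values describe the calls. They do not tell how many genes changed at each level. By chromosome, genes on the X were called lower in 10.1% of 514 cases and genes on chromosome 19 in 2.13% of 1034, beside the 6.03% over all genes. These shares are descriptions, since neighbouring genes are not independent.

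The largest fall was not in TRA2A itself. The gene ENSG00000187446.11 at chr15:41230839-41281890 had 7455, 7319 and 8874 scaled counts in CGG_siTRA, against 32271, 31132 and 31153 in CGG. The libraries of each group lay close together and the groups far apart, with 25.0% left (log2 change -2.0, SE 0.08, adjusted p = 5.12e-11). Without the repeat the same gene had 8177, 8918 and 7240 in siTRA, against 26564, 27439 and 27484 in CTL.

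Further abundant genes fell with little spread between libraries. The gene at chr2:201451669-201480846 had 2261, 1925 and 2193 scaled counts in CGG_siTRA, against 6221, 5882 and 6177 in CGG (log2 change -1.52, SE 0.10, adjusted p = 2.74e-08). The gene at chr20:37289638-37317260 had 688, 655 and 874 in CGG_siTRA, against 2160, 2158 and 2032 in CGG. Both were at 35% of CGG or just under, and no knockdown library came near a CGG library. The gene at chr10:114938193-114977676 had 3709, 3243 and 3530 in CGG_siTRA, against 8626, 8201 and 8591 in CGG. The gene at chr6:57172326-57189833 had 2217, 2104 and 2071 in CGG_siTRA, against 5063, 5045 and 5095 in CGG. The gene at chr6:110099819-110180004 had 654, 652 and 640 in CGG_siTRA, against 1495, 1399 and 1318 in CGG. These 3 fell by 1.28, 1.25 and 1.11 on the log2 scale, and in each the 3 knockdown libraries differed little among themselves. The gene at chr17:75318076-75405653 moved less but was among the 5 falls with the smallest p, with 7248, 7444 and 7707 in CGG_siTRA, against 13671, 14410 and 14445 in CGG (log2 change -0.92, SE 0.05, adjusted p = 4.81e-09).

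The remaining large falls included genes of low level with wider spread. The gene at chr5:157029426-157059119 had 24.3, 40.1 and 34.0 scaled counts in CGG_siTRA, against 103, 75.9 and 121 in CGG, and the gene at chrX:16123556-16153021 had 30.1, 47.9 and 26.5, against 82.0, 89.3 and 63.8. Neither pair of groups overlapped, and the adjusted p-values were 0.0034 and 0.0117. The X-linked gene lost its call without CGG library b or CGG_siTRA library c (adjusted p = 0.055 and 0.051).

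**Figure D1:**
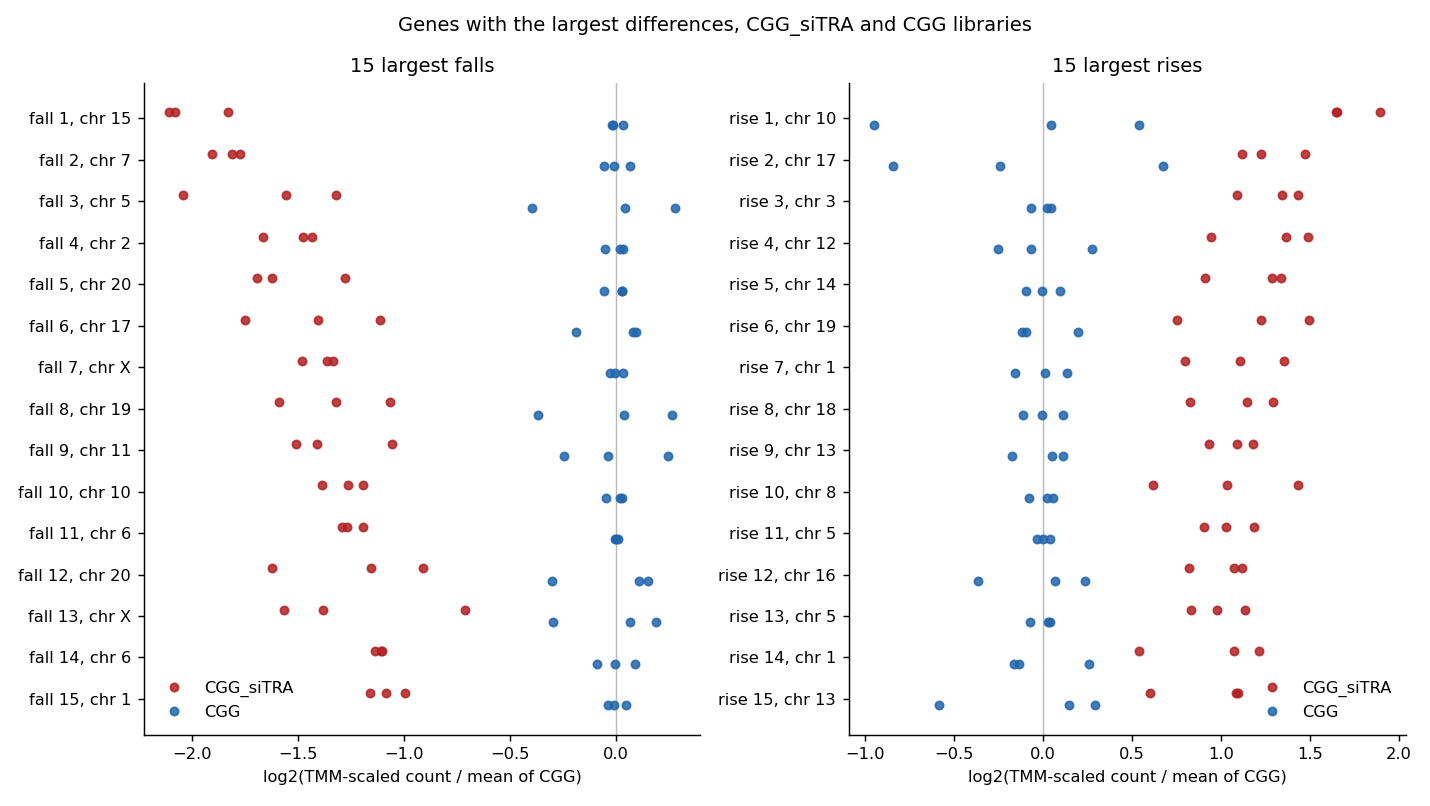
TMM-scaled count of each library divided by the mean of the 3 CGG libraries, on a log2 axis, for the 15 largest falls (left) and the 15 largest rises (right), ordered by size and labelled by chromosome. Each point is 1 library of CGG_siTRA (red) or CGG (blue); no gene has overlapping groups, as the rule for naming genes required.

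The abundant genes given next were taken from the largest rises, with CGG_siTRA means 1.98 to 2.45 times their CGG means. They do not stand for all abundant genes that rose, and the median log2 change of all genes called higher was 0.37. ENSG00000114739.13 at chr3:38453851-38493142 had 3647, 3869 and 3050 scaled counts in CGG_siTRA, against 1480, 1370 and 1456 in CGG (log2 change 1.29, SE 0.09, adjusted p = 2.74e-08). ENSG00000172795.15 at chr5:112976702-113020970 was the most abundant, with 19249, 17305 and 15614 in CGG_siTRA, against 8955, 8355 and 9032 in CGG (log2 change 0.99, SE 0.09, adjusted p = 6.54e-07). The gene at chr1:227563543-227662462 had 2588, 2182 and 1760 in CGG_siTRA, against 1113, 1021 and 907 in CGG. In all 3 genes library c of CGG_siTRA was the lowest of its group and still lay above every CGG library. The gene at chr12:65824131-65966295 had 1344, 1230 and 920 in CGG_siTRA, against 401, 455 and 578 in CGG, and the gene at chr14:75278774-75282230 had 3146, 4235 and 4095, against 1666, 1571 and 1793. Both were called higher (adjusted p = 8.61e-06 and 0.000507).

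The largest rise by fold was in a gene of low level, at chr10:62811996-62816366, with 94.9, 94.7 and 112 scaled counts in CGG_siTRA, against 31.2, 15.6 and 43.8 in CGG (log2 change 1.71, SE 0.33, adjusted p = 0.00216). Still lower were the gene at chr17:28703197-28711854, with 83.3, 70.2 and 65.2 in CGG_siTRA, against 25.4, 48.0 and 16.7 in CGG, and the gene at chr19:52388842-52397757, with 70.6, 42.3 and 58.6, against 23.1, 23.4 and 28.7. Both were called (adjusted p = 0.0276 and 0.0441), and the calls were lost when 4 and 5 of the 6 libraries were left out in turn, with adjusted p-values of up to 0.15 and 0.14. The first was also lost with the highest bin per gene (adjusted p = 0.17). With only the groups compared both were lost (adjusted p = 0.0509 and 0.0507), and the second also with the authors' scaling factors (adjusted p = 0.0516).

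A pair of neighbours on chromosome 13 moved in opposite directions. It was picked for this, as the called pair with the largest difference between its log2 changes. The gene at chr13:39009866-39038076 on the minus strand had 1297, 1174 and 1029 scaled counts in CGG_siTRA, against 2474, 2476 and 2333 in CGG. The gene at chr13:39038318-39050109 on the plus strand, with 241 bases between their annotated starts, had 3286, 3081 and 2768 in CGG_siTRA, against 1566, 1283 and 1500 in CGG. The first fell by 1.06 on the log2 scale (adjusted p = 3.88e-05) and the second rose by 1.07 (adjusted p = 6.48e-07). The pair did the same in siTRA against CTL, with log2 changes of -1.11 and 1.43. Of 1491 neighbour pairs within 1000 bases, 20 had both genes called, 11 of them in opposite directions, 8 both lower and 1 both higher. Over all genes tested 10.2% were called, and the count of pairs was not tested against this share. Whether the counting used strand is not given in the sources used here, so reads that run past a gene's end cannot be assigned.

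Many of the changes were also seen when TRA2A was lowered without the repeat. Of the 1522 genes called in CGG_siTRA against CGG, 910 (59.8%) were called the same way in siTRA against CTL, 139 were called the opposite way and 473 were not called. The 910 are 16% of the 5683 genes called in siTRA against CTL, where 38% of all genes tested were called. By direction, 591 of 903 falls (65.4%) and 319 of 619 rises (51.5%) were called the same way, beside 19.9% and 18.1% of all genes tested called lower and higher in siTRA. The difference of these shares between falls and rises was not tested.

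The test of the difference of the knockdown's effect with and without the repeat called 2897 of 14969 genes (19.4%), 1532 with a more positive change with the repeat (10.2%) and 1365 with a more negative one (9.12%). Among the 1522 genes it called 498 (32.7%), and among the 910 shared ones it left 763 uncalled. The difference contains the change of CGG_siTRA against CGG by which the 1522 genes were chosen. A share above 19.4% is thus partly built in, and the 910 were chosen for changing the same way. The CGG cells were transfected with the repeat, and CTL is labelled only as control. In this difference the repeat cannot be told apart from transfection. Of the 15 largest falls, 1 was not called lower in siTRA, and TRA2A's own fall there was fixed by the way it was chosen. The effects differed in 1 of the 15. That gene, at chrX:101550531-101554700, had 1409, 1559 and 1526 scaled counts in CGG_siTRA, against 3847, 3910 and 4019 in CGG, and 1516, 1599 and 1343 in siTRA, against 2145, 2185 and 2224 in CTL. Its level was alike in both knockdowns and higher in CGG than in CTL, and the log2 changes were -1.39 and -0.56 (difference -0.83, SE 0.10, adjusted p = 2.66e-05). TRA_OE had 4052, 3931 and 4356, near the CGG values.

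The 15 largest rises were chosen by their change with the repeat, which favours a positive difference of effects. Of the 15, 7 were called higher in siTRA too, 5 were called lower there and 3 were not called, and the effects differed in 9. The gene at chr5:138465490-138469315 was the clearest of these, with 2426, 2944 and 2644 scaled counts in CGG_siTRA, against 1262, 1328 and 1292 in CGG, and 2397, 2883 and 1910 in siTRA, against 4239, 3629 and 3942 in CTL. Both knockdown groups held like levels, between a low CGG and a high CTL, so that the log2 change was 1.05 with the repeat and -0.72 without it (difference 1.76, SE 0.16, adjusted p = 1.06e-06). TRA_OE, which has no knockdown and no repeat, was also low at 1584, 1350 and 1494. The same order of groups, with CGG and TRA_OE low and CTL high, held for the gene at chr8:22687659-22693302, with means of 118 in CGG_siTRA, 56.6 in CGG, 111 in siTRA, 194 in CTL and 63.3 in TRA_OE. It held as well for the gene at chr13:77535674-77645263, with means of 221 in CGG_siTRA, 115 in CGG, 149 in siTRA, 266 in CTL and 117 in TRA_OE. The calls of these 2 genes in CGG_siTRA against CGG were lost without 4 and 3 of the 6 libraries, with adjusted p-values of up to 0.12 and 0.13, and the call of the chromosome 13 gene was also lost with the highest bin per gene in place of the sum (adjusted p = 0.47). The genes at chr18:46333968-46463140 and chr1:3489926-3602600 had means of 135 and 500 in CGG_siTRA, against 62.7 and 255 in CGG, and 76.6 and 274 in siTRA, against 123 and 465 in CTL. In these 2 genes the siTRA level lay near CGG and the CGG_siTRA level near CTL. The call of the gene on chromosome 1 was lost with the highest bin per gene (adjusted p = 0.0501).

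A few shared rises were smaller with the repeat. The gene at chr2:189560579-189583420 had 3382, 3260 and 3436 scaled counts in CGG_siTRA, against 1851, 1902 and 1908 in CGG, and 3579, 3537 and 4083 in siTRA, against 1406, 1270 and 1193 in CTL. The rise was 0.83 with the repeat and 1.53 without it (difference -0.70, SE 0.11, adjusted p = 0.000169). The abundant gene at chr5:112976702-113020970 had a difference of -0.43 (SE 0.12, adjusted p = 0.0224), a call lost in 7 of 17 alternatives with adjusted p-values of up to 0.07.

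**Figure D2:**
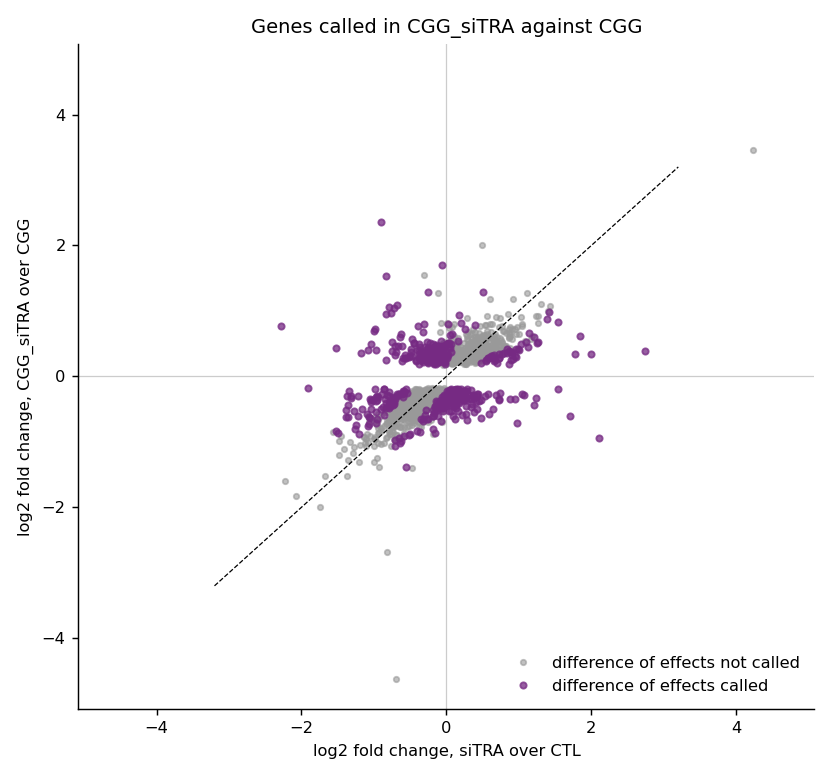
Each point is 1 of the 1522 genes called in CGG_siTRA against CGG, with its log2 fold change of CGG_siTRA over CGG on the vertical axis and of siTRA over CTL on the horizontal axis. Genes for which the difference of the effects was called (498) are purple and the others grey; the dashed line marks equal changes, and most points lie at the lower left and upper right (1196 genes, 78.6%, have the same sign, beside 56.9% of all genes tested).

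Bin use was tested next, the log2 change of a bin relative to the other bins of its gene. Of 265486 bins tested with edgeR's diffSpliceDGE, 358 (0.135%) were called, 269 with more use in CGG_siTRA (0.101% of the bins tested) and 89 with less (0.0335%), in 179 genes or groups. On simulated libraries 33 of 169 calls of this test fell in genes with no changed bin, so a second test was added. It fits each bin with the counts of the rest of its gene as offset. Calls that passed both had 4 such false calls among 122. The simulation drew each bin on its own, with no effect shared by the bins of a library. Its changes were put only in bins of higher count than the test required. These rates need not hold for the real libraries. In the real libraries 139 bins passed both (0.0524%), 86 with more and 53 with less use. In the authors' deposited table, 8862 of 265210 bins had an adjusted p under 0.05, among them 276 of the 358, all with the same sign. The count of 358 became 66 without CGG_siTRA library b, 106, 121 and 163 without CGG library b, a and c, and 578 without CGG_siTRA library c.

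Of the 139 bins, 79 lay in groups of overlapping genes, where a bin can move because one gene of the group moved. The other 60 lay in 31 single genes, 43 with more and 17 with less use. In siTRA against CTL, 54 of the 60 had the same sign and 28 were called the same way, and none was called the opposite way. Bins of the same gene share its total and are not independent. Of the 28, 7 lay in 1 gene on chromosome 8, 4 in TRA2A and 3 in the gene at chr1:6785324-7769706. TRA2A was itself chosen for its fall in both knockdowns. Over all bins tested, 55.4% had the same sign and 0.508% were called in siTRA against CTL. In place, 27 of the 43 bins with more use were parts of internal exons with several bins, 5 were whole internal exons, 7 lay in the 3'-most exon and 4 in the 5'-most exon. Of all 265486 bins tested, those in overlapping genes included, 136229 were parts of internal exons with several bins and 66746 whole internal exons. A further 37030 lay in the 3'-most exon and 24657 in the 5'-most exon. Of the 17 with less use, 11 came from 1 gene on chromosome 8.

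Within TRA2A the knockdown was uneven along the gene. Of its 32 bins 28 were tested, numbered here from the 5' end. Bins 10 to 15, which hold most of the counts, were at 0.24 to 0.27 of their CGG mean. Bin 9, at chr7:23521841-23522120, instead had 148, 126 and 81.3 scaled counts in CGG_siTRA, against 99.3, 74.8 and 100 in CGG, and bin 4, at chr7:23531417-23531680, had 42.8, 61.3 and 22.7, against 37.0, 24.6 and 37.5. Both overlapped with CGG, unlike bins 10 to 15. Bins 17, 21 and 24 stood higher too, rest on few counts and passed neither test; bin 17 had 13.9, 11.1 and 3.78 scaled counts in CGG_siTRA, against 1.15, 2.23 and 7.17 in CGG. As a share of the gene, bin 9 rose to 2.67% ± 0.85 in CGG_siTRA, against 0.576% ± 0.076 in CGG (SD, n = 3 each; log2 change of use 2.18, adjusted p = 4.53e-10 by diffSpliceDGE). Bins 4 and 6 to 9 passed both tests, with library c lowest of the 3 knockdown libraries in each.

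Without the repeat bin 9 held 2.12% ± 0.60 of the gene in siTRA, against 0.771% ± 0.103 in CTL (SD, n = 3 each), and 4 of the 5 bins were called there too (adjusted p for bin 9 of 6.18e-05). In TRA_OE, where bins 10 to 15 were 11.8 to 15.9 times their CTL mean, bins 4 to 9 were at 0.52 to 0.91 of it. The means of these 6 bins in TRA_OE were 17.8 to 247 scaled counts. The overexpressed copy and the cell's own gene are not told apart by the counts.

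**Figure D3:**
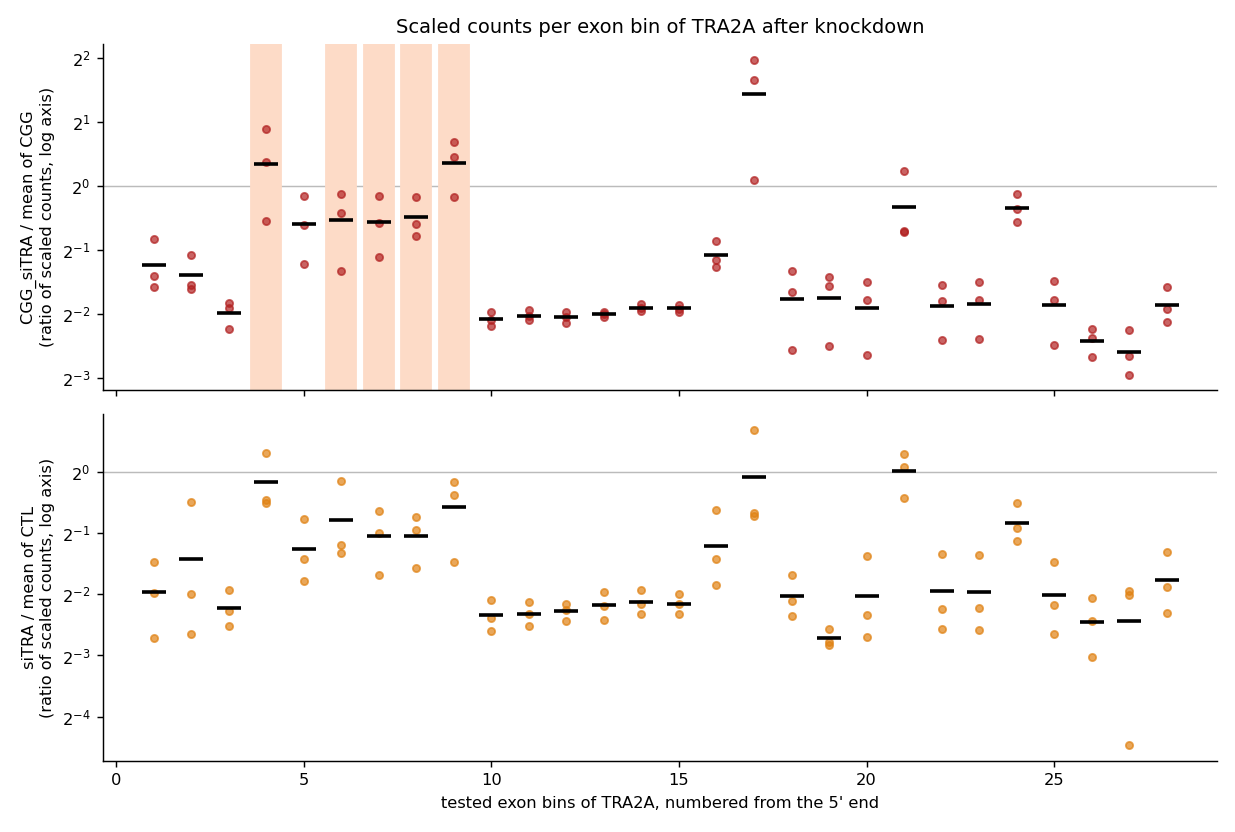
Scaled count of each of the 28 tested exon bins of TRA2A relative to the reference mean, on a log axis, with CGG_siTRA over the CGG mean above and siTRA over the CTL mean below; points are libraries, black bars the ratio of group means, and shaded columns the 5 bins that passed both tests. Bins 4 to 9 stay above the level of 0.24 to 0.27 at which bins 10 to 15 lie in the upper panel.

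The single gene with the most called bins lies at chr8:61500556-61714640 on the minus strand. As a whole it rose, with 38554, 34793 and 33115 scaled counts in CGG_siTRA, against 25962, 24740 and 27062 in CGG (log2 change 0.45, SE 0.07, adjusted p = 0.0002). Its 14 called bins, all with less use, lie in the 3' part from bin 41 of 56 onwards, where bins 46 and 54 were not called, and together took 8.87%, 9.17% and 8.57% of the gene's counts in CGG_siTRA, against 14.5%, 15.3% and 13.6% in CGG. The shares of the groups were well apart. In counts, bin 47, at chr8:61555924-61556022, had 295, 254 and 253 in CGG_siTRA, against 304, 304 and 308 in CGG, and its share was 0.753% ± 0.020 in CGG_siTRA and 1.18% ± 0.05 in CGG (SD, n = 3 each). Of the 14 bins 11 passed both tests and 9 were called in siTRA too, where the 14 took 9.19%, 8.91% and 9.49% in siTRA, against 14.2%, 12.9% and 13.2% in CTL. The call of bin 47 was lost without CGG_siTRA library b (adjusted p = 0.22) and without each CGG library (up to 0.12).

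**Figure D4:**
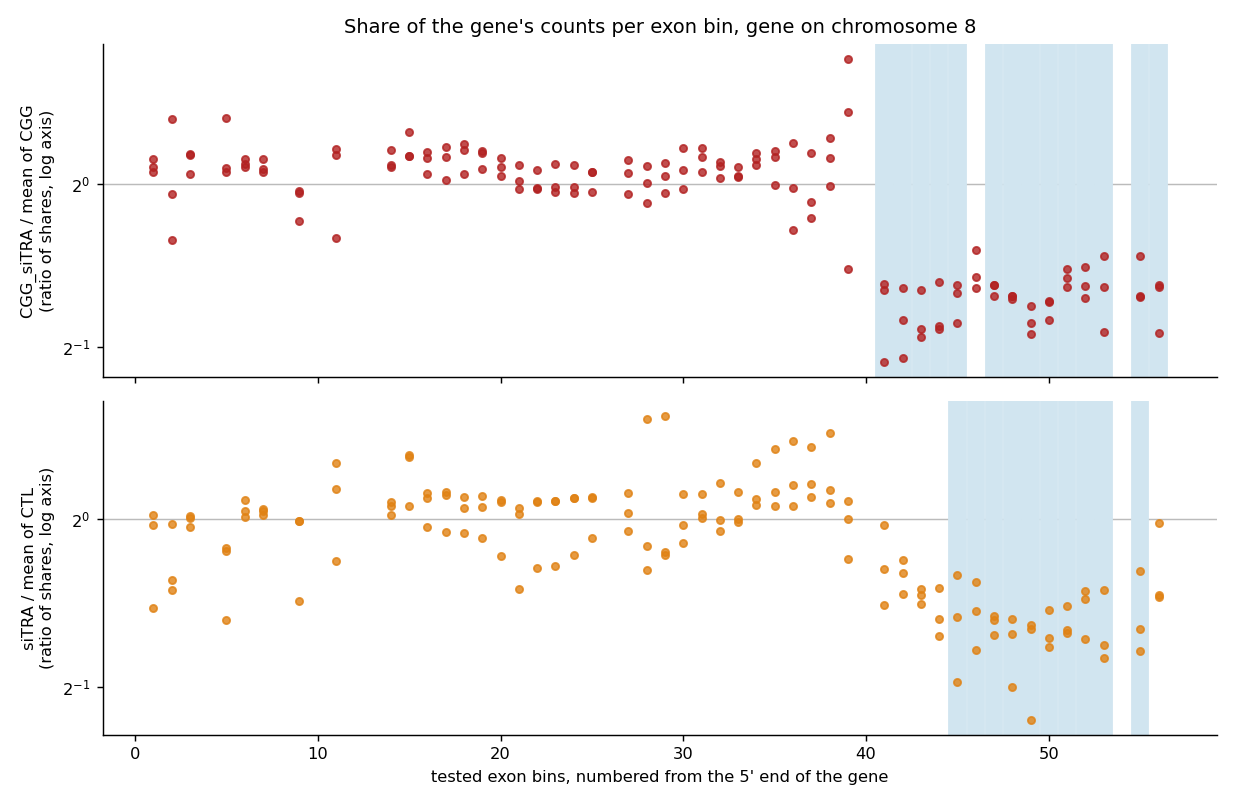
Share of the gene's counts in each tested exon bin of the chromosome 8 gene, relative to the mean of CGG for CGG_siTRA (above) and of CTL for siTRA (below), on a log axis; points are libraries, shaded columns the bins called in that comparison, and bins with a CGG mean under 50 are left out. From bin 41 to the 3' end all 3 CGG_siTRA libraries lie below 1 in every bin shown.

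Several other single genes had bins that changed the same way in both knockdowns. At chr12:98532967-98535634, an internal stretch of 2668 bases, the share of the gene was 5.31%, 5.55% and 6.19% in CGG_siTRA, against 9.21%, 9.33% and 8.93% in CGG (log2 change of use -0.69, adjusted p = 0.000745 by diffSpliceDGE), and 5.49%, 5.85% and 5.60% in siTRA, against 8.30%, 8.18% and 7.96% in CTL. The gene as a whole did not pass the test (log2 change 0.00, adjusted p = 0.997). The bin beside it, at chr12:98532823-98532966, had 1.27%, 1.24% and 1.32% in CGG_siTRA, against 2.16%, 2.11% and 1.96% in CGG. Its call in CGG_siTRA against CGG was lost without CGG_siTRA library b and CGG libraries a and b, with adjusted p-values of up to 0.16. In siTRA this neighbouring bin had 1.33%, 1.39% and 1.31%, against 1.91%, 1.98% and 1.83% in CTL. It was not called there (adjusted p = 0.0759 by diffSpliceDGE).

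At chr15:63061713-63061788, a stretch of 76 bases, use rose to 0.994%, 0.946% and 0.906% of the gene in CGG_siTRA, against 0.571%, 0.544% and 0.522% in CGG (log2 change of use 0.80, adjusted p = 8.2e-07). In siTRA it was 0.878%, 0.983% and 0.963%, against 0.719%, 0.645% and 0.672% in CTL. The increase was called in both comparisons, and the gene level did not pass the test (log2 change 0.07, adjusted p = 0.49).

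At chr13:25331559-25336212 the share of the gene was 9.04%, 9.35% and 7.31% in CGG_siTRA, against 4.52%, 3.91% and 4.18% in CGG, and 8.83%, 10.2% and 8.61% in siTRA, against 4.18%, 3.64% and 4.05% in CTL. The bin is covered thinly, at 0.0327 of the gene's median bin per base, and its use rose in both knockdowns (log2 changes of use 1.03 and 1.22, adjusted p = 1.73e-15 and 6.69e-23). The gene itself rose by 0.34 on the log2 scale (adjusted p = 0.00209).

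The last exons of a further pair of genes changed in opposite ways. At chr1:31906421-31908533 the 3'-most bin held 6.97%, 6.61% and 6.74% of its gene in CGG_siTRA, against 10.1%, 10.3% and 9.89% in CGG, and 6.23%, 7.24% and 6.29% in siTRA, against 9.61%, 9.35% and 10.1% in CTL. This gene fell as a whole by 0.90 on the log2 scale (adjusted p = 4.1e-07), and the bin averaged 2029 scaled counts in CGG_siTRA and 5621 in CGG (log2 change of use -0.57, adjusted p = 0.00308). At chr6:11135812-11138733 the 3'-most bin held 29.6%, 27.8% and 25.6% in CGG_siTRA, against 18.6%, 19.1% and 20.5% in CGG, and 28.2%, 29.9% and 29.1% in siTRA, against 19.4%, 20.5% and 20% in CTL.

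Smaller internal bins changed as well. At chr1:7737959-7738482 the share was 3.81%, 3.93% and 3.77% in CGG_siTRA, against 2.21%, 2.64% and 2.46% in CGG. In that gene 6 bins passed both tests with more use, and 3 of the 6 were called the same way in siTRA against CTL. At chr4:38053106-38053225, a whole internal exon of 120 bases, the share was 1.26%, 1.19% and 1.02% in CGG_siTRA, against 0.696%, 0.768% and 0.761% in CGG, and 1.13%, 1.15% and 1.1% in siTRA, against 0.608%, 0.559% and 0.662% in CTL. Both were called in siTRA against CTL too (adjusted p = 0.0398 and 8.41e-08). When single libraries were left out, the bins on chromosomes 15 and 13 kept their calls each time, the larger bin on chromosome 12 lost its call without CGG_siTRA library b (adjusted p = 0.05), and those on chromosomes 1, 6 and 4 lost theirs in 2 to 4 of the 6 cases, with adjusted p-values of up to 0.16 for the bin at chr1:7737959-7738482, 0.13 for that at chr1:31906421-31908533, 0.13 for that on chromosome 6 and 0.093 for that on chromosome 4.

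**Figure D5:**
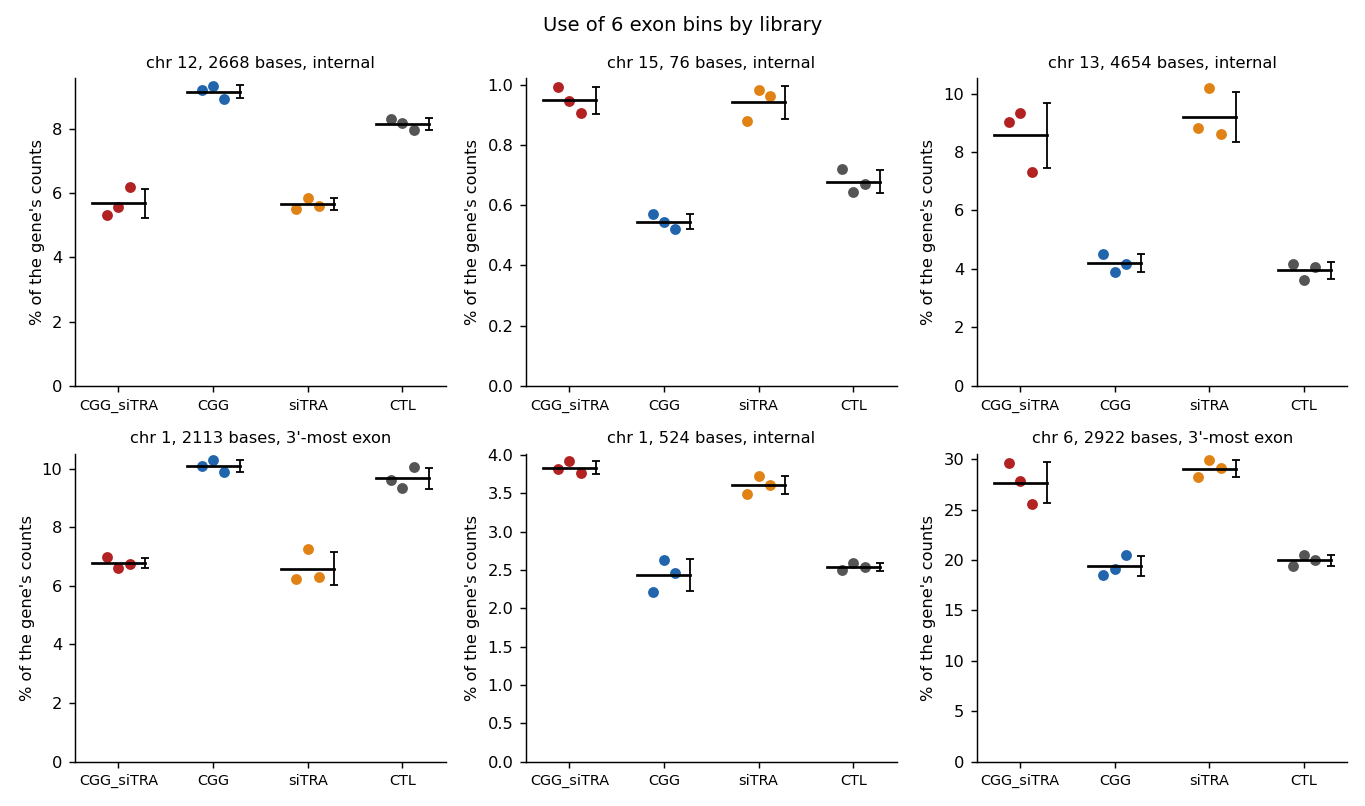
Share of the gene's counts, in percent, taken by each of 6 exon bins that passed both tests and were called the same way in siTRA against CTL; the panels name the chromosome, the width and the place of the bin. Points are libraries, lines the means and bars 1 SD (n = 3); in every panel both knockdown groups lie on the same side of CGG and CTL without overlap.

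Not all bins were shared between the knockdowns. At chr14:94055185-94056015 the share was 0.785%, 0.932% and 0.580% in CGG_siTRA, against 0.361%, 0.345% and 0.331% in CGG, but 0.573%, 0.620% and 0.512% in siTRA, against 0.727%, 0.641% and 0.689% in CTL. It was called with the repeat and not without it (adjusted p = 0.855), and CTL lay above CGG. The difference between the comparisons was not tested for bins.

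Of the 358 called bins, 164 were thinly covered ones, with a coverage per base of at most 1/8 of the gene's median bin, as introns kept in a transcript or rarely used exons have. Of 33142 such bins 164 (0.495%) were called, 149 with more use in CGG_siTRA and 15 with less, against 194 of the other 232344 bins (0.0835%), 120 with more and 74 with less. The 149 did not behave alike across libraries. Their median share relative to CGG was 2.55 and 2.5 in CGG_siTRA libraries a and b but 1.47 in library c, and in siTRA it was 1.87, 2.23 and 1.30. In CTL, with no knockdown, it was also above 1, at 1.79, 1.5 and 1.79, and in TRA_OE it was 1.13, 1.06 and 1.08. The 149 were chosen for more use in CGG_siTRA than in these same CGG libraries. Values above 1 are thus partly built in, in the other groups too. Only 25 of the 149 passed both tests, and 16 were called the same way in siTRA against CTL while 5 were called the opposite way. The count was 27 without CGG_siTRA library b, 59 without library a and 346 without library c, and 43, 48 and 77 without CGG library b, a and c. Taken over all reads, thinly covered bins held 2.21%, 2.19% and 1.94% in CGG_siTRA, against 2.04%, 2.01% and 2.05% in CGG, and the groups overlapped. The part that library differences play in the 149 calls was not tested.

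Some groups of overlapping genes had many called bins. The group at chr17:63682336-63774776 had 20 called bins of 100, 18 with less use, and 15 were called in siTRA too. The group at chr11:10797050-10809110 had 16 of 99, all with more use. Of these, 14 were thinly covered, 5 passed both tests and 1 was called in siTRA. The group at chr2:102311568-102398775 had 11 of 41, all with more use and all passing both tests, and 10 of them were called in siTRA. The group at chr14:103561896-103714249 had 10 of 69, all with less use, and none was called in siTRA. The deposited tables do not tell which gene of a group a shared bin's reads came from.

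The authors' deposited event tables give a change in percent spliced in (PSI) for 6311 splicing events in other pairs of groups. The change of CGG_siTRA against CGG follows from 2 of these tables as the difference of their values, read as first-named group minus second, and has no test. From the authors' deposited tables, the change exceeded 0.1 for 99 events of all types, 71 with a higher PSI in CGG_siTRA and 28 with a lower one. Cassette exons, which are included or skipped whole, made up 30 of these events, 28 with more inclusion, and retained introns 15, 14 with more. Over all retained introns with a change other than 0 in the authors' deposited tables, 99 of 122 (81.1%) were higher in CGG_siTRA, with a median over all 129 of 0.023. In the authors' deposited tables this share was 59.3% for cassette exons, 58.4% for complex events and 47% to 53.8% for the other types. The median over all 6311 events was 0. Among the events past 0.1 that contain tested bins, the bin shares had the same sign for 26 of 26 cassette exons and 10 of 10 retained introns. Over all events with tested bins, whatever their size, it was the same for 789 of 1163 cassette exons and 53 of 64 retained introns in the authors' deposited tables; bins and events come from the same reads.

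Individual events in the authors' deposited tables included a cassette exon between chr2:233273052 and 233274676, with a PSI higher by 0.172 in CGG_siTRA, and a retained intron at chrX:49179388-49179693, higher by 0.204. A retained intron at chr22:28796121-28796148 had a difference of -0.146 in the authors' deposited tables. The bins inside these events had log2 changes of share of 0.71, 0.57 and -0.38. Since the deposited changes come without replicate values, their spread between libraries is unknown.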

How the data were processed

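Total RNA of COS-7 cells was depleted of ribosomal RNA and sequenced, per the labels' protocols. Reads were handled with cutadapt 1.14 and STAR 2.5.2 on the human build GRCh38.p10, per the submitters' processing notes, which also list DESeq2. Reads that differ between monkey and human can be lost. The authors deposited raw counts per exon bin in 6 tables, with DEXSeq p-values and log2 fold changes, a normalised signal per bin for 15 libraries, and 5 event tables with a p-value and a PSI change (held here as a score), per the file headers. The count of a library differed in 0 of 8329554 cells between tables, and the signal gave whole reads (within 0.1) for 100.0% of values. The signal filled 1623 missing cells. Reads outside the bins used were 1.56% to 2.10%.

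Bin counts were summed to genes, so a read that spans bins counts more than once. Of 23133 single IDs 0 could be named, so the planned gene lists, the cell type markers and the levels of TRA2B and FMR1 were not analysed here. Genes reaching a normalised count of 10 in 3 libraries were tested with edgeR 4.0.16 (R 4.3.3; TMM scaling, 5 group means over 15 libraries, Benjamini-Hochberg adjusted p under 0.05), and bins with diffSpliceDGE under the same minimum in genes with 2 or more such bins. Library columns were assigned to groups by the table names and lettered. On simulated counts with 200 changed genes, 73% of 1.5-fold and 91% of 2-fold changes in CGG_siTRA against CGG were recovered, with 9 false among 173 calls. For bins 47% and 88% were recovered, and 37% and 80% by both bin tests. Counts were drawn independently, and changes were put only in genes and bins above a set mean count. Recovery in the real libraries may differ. The second bin test and the limits on thin coverage were added after the data were seen. Genes named are the 15 largest rises and falls and the 5 smallest p each way among called single genes whose groups did not overlap and whose higher mean reached 50 (the groups did not overlap in 29% of genes tested). The neighbour pair on chromosome 13 was named for the largest opposite changes among called pairs. Bins described in full were picked among those passing both tests in single genes after their values were seen, by no fixed rule, in place of the 10 largest changes each way first planned, 12 of which failed the second test. Members and lists were chosen with earlier results of these data known.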

Additional observations from a re-analysis of the deposited data

Results flagged for a closer look

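In 11 of the 33 named genes the effect of the knockdown differed between cells with and without the repeat by edgeR's test of the difference (adjusted p under 0.05), with values on the log2 scale as CGG_siTRA over CGG minus siTRA over CTL. The 33 genes were chosen by their change of CGG_siTRA against CGG, which is part of this difference. The number flagged is thus partly built in. Since CTL is labelled only as control, the repeat cannot be told apart from transfection in this difference. In 7 rising genes the changes had opposite signs in the 2 comparisons, 5 of them called lower in siTRA against CTL. The difference was 1.86 for the gene at chr8:22687659 (adjusted p = 0.00219), 1.78 at chr13:77535674 (0.00197), 1.77 at chr18:46333968 (0.000882) and 1.77 at chr10:62811996 (0.0111). It was 1.76 at chr5:138465490 (1.06e-06), 1.73 at chr1:3489926 (0.000345) and 1.55 at chr17:28703197 (0.0395). The call of the last was lost in 10 of 17 alternatives, 9 of them leaving out a library, with adjusted p-values of up to 0.19, and that at chr13:77535674 was lost with the highest bin per gene (0.084). The gene at chr3:38453851 rose in both comparisons and more with the repeat, by 0.79 (adjusted p = 0.000223). The genes at chr2:189560579 and chr5:112976702 rose in both and less with the repeat, with differences of -0.70 (adjusted p = 0.000169) and -0.43 (0.0224), the second lost in 7 of 17 alternatives (up to 0.07). The gene at chrX:101550531 was the only one among the named falls, with -0.83 (adjusted p = 2.66e-05). Groups of 3 libraries were not tested for single outlying libraries.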

How the results depend on the processing

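No paired analysis was possible because nothing links a count column to a replicate number in the titles. The count of 1522 genes was 2336 with the authors' scaling factors, 2374 and 2370 with limma (log2 of the value plus 1 and plus 5), and 944 to 1706 when single libraries were left out. With DESeq2, no filter, only the groups compared or the highest bin per gene it stayed within 1.5 times. The 5683 genes of siTRA against CTL were 4625 to 5657, and the 2897 of the difference of effects 2066 to 3349, without single libraries. The 358 bins were 622 with only the groups compared, 8862 in the authors' deposited table and 66 to 578 without single libraries; the 1348 bins of siTRA against CTL were 606 to 1823. The 149 thinly covered bins with more use were 72 with limma's diffSplice, 247 with only the groups compared, 36 with the second bin test and 27 to 346 without single libraries. Of 34 named genes 28 kept their call in all alternatives run, as did 8 of 11 differences of effects and 11 of 47 bins, and none of these turned its direction. Fits that left out a library assume that its group varies like the others. In simulation 47% of 1.5-fold changes were recovered among bins of higher count. Smaller changes, and changes in bins of low count, may be missed.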
